A study of Mus musculus with 4 samples.

Results

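The OAS genes encode the 2'-5' oligoadenylate synthetases and their relatives, a family of interferon-stimulated proteins that bind double-stranded RNA. The genes followed here were chosen by name: Oas1a, Oas1b, Oas1c, Oas1g, Oas2, Oas3, Oasl1 and Oasl2. Rows were found for 7 of these 8 among 16846 genes, and Oas1b is not analysed here. RNA was measured in HT22, an immortalised line derived from mouse hippocampal neurons, in 4 groups of 2 sequencing libraries each. The groups were cells given a construct carrying the long noncoding RNA Ntoco (labelled Lv-Ntoco), cells given its empty counterpart (Vector), cells with an shRNA against Ntoco (sh-Ntoco) and cells with a control shRNA (sh-Ctrl). The labels give HT22 as the cell line of all 4 samples, but the titles differ: HT25 for Lv-Ntoco, HT24 for Vector, HT23 for sh-Ntoco and HT22 for sh-Ctrl. All were taken as HT22, and a difference in line between the groups cannot be told apart from the constructs. All carry an introduced construct, and no group of untouched cells was analysed. The column names call the vector pcDNA, a plasmid name, so the way of delivery is uncertain. The labels list 1 sample per group and do not say whether its 2 libraries are separate cultures. The p-values below therefore refer to the spread among these libraries alone, and that spread may be technical.

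In the classical pathway, an OAS enzyme that has bound double-stranded RNA joins ATP into short 2'-5'-linked oligoadenylates, known as 2-5A. This product acts as a signal that leads to cleavage of viral and cellular RNA. Transcription of the OAS genes follows type I interferon through a complex that holds the factors Stat2 and Irf9 and binds the interferon-stimulated response element in promoters. Not every family member makes 2-5A. In the mouse, Oas1a, Oas1g, Oas2, Oas3 and Oasl2 are active synthetases, whereas Oas1c and Oasl1 lack the activity.

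All 7 genes lie on chromosome 5 of GRCm38.p6 (RefSeq). Oasl2 (Entrez Gene 23962, 114896926 to 114912245) and Oasl1 (Entrez Gene 231655, 114923143 to 114937911) are neighbours. In a second cluster, Oas2 (246728) runs from 120730333 to 120749886, Oas3 (246727) from 120753098 to 120777684 and Oas1c (114643) from 120800194 to 120812540. Oas1g (23960) spans 120876142 to 120887613 and Oas1a (246730) spans 120896256 to 120907544. No other RefSeq gene overlapped any of the 7. RefSeq promoter windows, from 250 bases before to 50 bases after an annotated start, were matched for Oas1a, Oas1c, Oas1g, Oas3, Oasl1 and Oasl2, but not for Oas2. They were searched on both strands, with overlaps allowed, for GAAANNGAAA, the core repeat of the interferon-stimulated response element. The 30 bases around the matches are shown because this is the motif that the interferon factors are known to bind. Each is written 5' to 3' on the gene's own (minus) strand, from GRCm38.p6, with the matched bases in capitals.
Oas1a, chr5:120907528-120907557: tgcccttctcggGAAATGGAAACTGAAAat
Oas1g, chr5:120887614-120887643: tgcccttctcggGAAATGGAAACTGAAAat
Oas1c, chr5:120812611-120812640: cagaaatgggacTTTCAGTTTCCATTTCcc
Oas3, chr5:120777717-120777746: cagcagggaggaGAAAACGAAAgtgaaggg

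The Oas1a and Oas1g stretches were the same in all 30 bases and each held 2 overlapping matches. These began 20 and 14 bases before the start used for the Oas1a window, and 18 and 12 bases before that of Oas1g. Oas1c held 2 overlapping matches on the other strand, the farther of which lay 114 to 105 bases before the start. Oas3 held 1 match, 75 to 66 bases before the start. The start of a window is not always the outer end of the gene span given above: it lay 19 bases inside the span for Oas1a, 26 for Oas1c, 25 for Oas3 and 0 for Oas1g. The Oas1a matches therefore lie almost wholly within the annotated gene span. The windows of Oasl1 and Oasl2, whose starts lay 97 and 8 bases inside, did not hold these letters. The motif was present in 4 of the 6 family windows and in 3.44% of all 32851 promoter windows of the same length. A match is a description of the sequence, not evidence of binding.

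Oas1a and Oas1g also resemble each other along the transcript. Of the 50-base stretches in the longest annotated coding transcript of each, 57.6% of those of Oas1a occurred in an Oas1g transcript, and 54.1% of those of Oas1g in an Oas1a transcript (GENCODE). The longest shared run was 526 bases. Reads from these 2 genes could have been exchanged or lost in counting, so their separate values are uncertain. Oas1g shared 1.24% and Oas1a 0.708% of such stretches with Oas1b, and no other pair of measured members shared any.

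Facts of the whole data set bear on what follows. Totals ranged from 18452588 to 19859041 counts per library, and all 7 genes were among the 12115 that passed the filter on low counts. In the 4 shRNA libraries, Oas2 reached the filter's level in 2 and the other members in all 4, so none passed through the high libraries alone. Neuronal markers were nearly absent: 5 of the 8 listed (Map2, Tubb3, Nefl, Syp and Syt1) had rows, and their summed level was between 0.219 and 0.471 FPKM in every library. The fibroblast-type collagens Col1a1 (36.8 to 194 FPKM) and Col1a2 (191 to 711 FPKM) were abundant and Pdgfra was present (3.41 to 10.8 FPKM), whereas Dcn reached 0.0245 FPKM and Lum had 0 counts. The summed fibroblast list was 385 to 426 FPKM in Lv-Ntoco, 235 to 427 FPKM in Vector, 285 to 916 FPKM in sh-Ntoco and 628 to 647 FPKM in sh-Ctrl. The astrocyte list, with 4 of 5 markers found, summed to 13.7 to 16.7 FPKM in Lv-Ntoco, 3.67 to 14.0 FPKM in Vector, 5.93 to 21.7 FPKM in sh-Ntoco and 18.9 to 20.5 FPKM in sh-Ctrl. Aldh1l1 (0.462 to 11.2 FPKM) and S100b (2.92 to 13.6 FPKM) supplied nearly all of it. Gfap reached only 0.316 FPKM and Slc1a3 0.152 FPKM. Oligodendrocyte markers summed to 1.97 to 2.91 FPKM, mostly from Mbp (1.89 to 2.64 FPKM), and endothelial markers to 0.105 to 0.525 FPKM. The microglia and macrophage list had 7 of 8 markers with rows. Its summed level was 6.02 to 6.45 FPKM in Lv-Ntoco, 9.52 to 9.60 FPKM in Vector, 8.70 to 12.2 FPKM in sh-Ntoco and 11.6 to 12.1 FPKM in sh-Ctrl. Cd68 supplied most of it (3.80 to 11.5 FPKM), and the pan-leukocyte gene Ptprc had 0 counts in all 8 libraries. The part of these markers in the results below was not tested. The level of Ntoco is not analysed here, so the knockdown and the overexpression were not checked.

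The OAS genes were low in 5 libraries and high in 3, and the split did not follow the Ntoco labels. Levels are given as FPKM, the authors' fragment values scaled by gene length and library size, which allows genes of different length to be compared. The 7 genes together came to 27.9 and 542 FPKM in Lv-Ntoco libraries 1 and 2, and to 348 and 486 FPKM in the Vector libraries. They came to 20.1 and 15.4 FPKM in the sh-Ntoco libraries and to 14.1 and 20.8 FPKM in the sh-Ctrl libraries. Both Vector libraries and Lv-Ntoco library 2 were thus high. Lv-Ntoco library 1 stood above all 4 shRNA libraries but much closer to them than to the high libraries. In bulk RNA, fewer cells expressing a gene and less RNA per cell cannot be told apart.

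**Figure D1:**
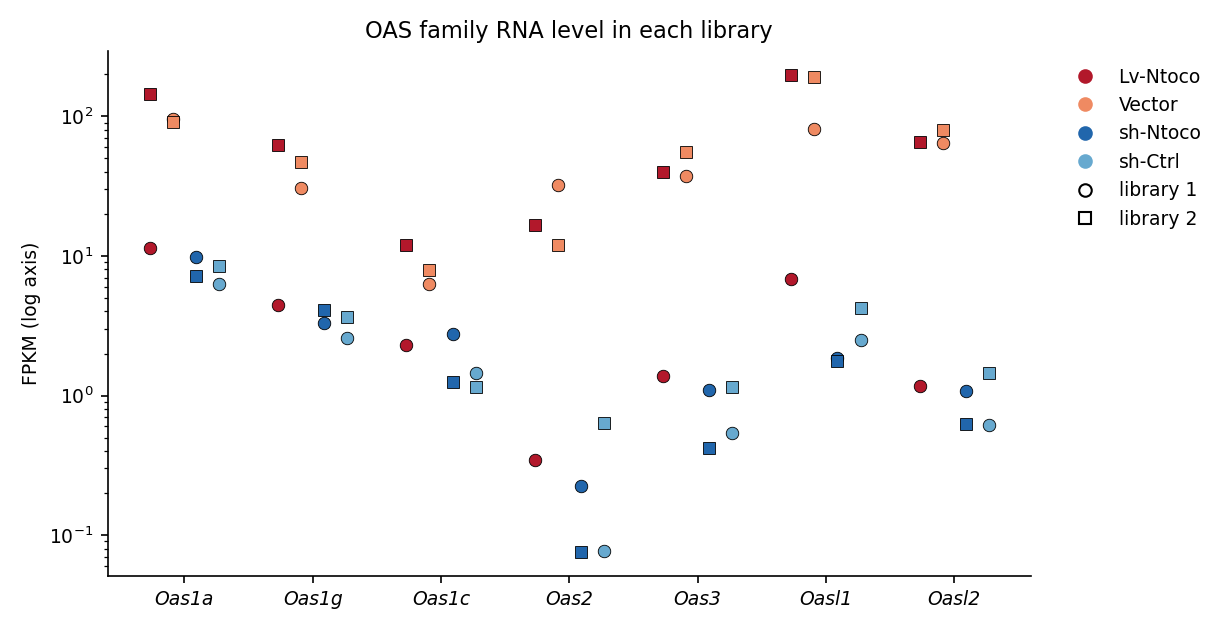
FPKM of the 7 measured OAS genes (log axis) in the 8 libraries; colour gives the group and symbol the library number, and each point is 1 library. In every gene both Vector libraries and Lv-Ntoco library 2 lie above the other 5 libraries. Lv-Ntoco library 1 lies nearer the shRNA libraries, but above all of them in Oas1a, Oas1g, Oas3 and Oasl1. For Oasl1 it had 6.87 FPKM, against 1.75 to 4.27 FPKM in the shRNA libraries.

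Among the single-unit synthetases, Oas1a is the main active mouse OAS1 enzyme. It had 11.4 and 146 FPKM in Lv-Ntoco libraries 1 and 2, against 96.6 and 92.0 FPKM in Vector. Its level was 9.78 and 7.17 FPKM in sh-Ntoco, against 6.32 and 8.49 FPKM in sh-Ctrl. Lv-Ntoco library 2 was the highest of all 8, library 1 of that group was below both Vector libraries, and the knockdown and its control overlapped. Oas1g, also an active synthetase, had 4.44 and 62.5 FPKM in Lv-Ntoco, against 30.6 and 47.0 FPKM in Vector. It had 3.30 and 4.08 FPKM in sh-Ntoco, against 2.60 and 3.66 FPKM in sh-Ctrl. The order of libraries was nearly that of Oas1a, with the same 3 libraries high and the shRNA groups overlapping.

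Oas1c, a relative without synthetase activity, varied least. It had 2.29 and 12.1 FPKM in Lv-Ntoco, against 6.26 and 7.99 FPKM in Vector, and 2.75 and 1.26 FPKM in sh-Ntoco, against 1.46 and 1.15 FPKM in sh-Ctrl. Its highest library exceeded its lowest by 11.1-fold in CPM (counts scaled by library size), the smallest such range of the 7 genes. The 3 further OAS1 rows that were not among the named genes had few reads. Oas1d had 0 and 13 counts in Lv-Ntoco, against 18 and 14 in Vector, and 1 and 1 in sh-Ntoco, against 0 and 0 in sh-Ctrl. Oas1e reached 2 counts and Oas1f 1 count. The few Oas1d reads came almost entirely from the libraries in which the other genes were high.

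Oas2 and Oas3 are the large synthetases, built from repeated OAS units, and Oas3 prefers long double-stranded RNA. Oas2 had 0.346 and 16.6 FPKM in Lv-Ntoco, against 32.3 and 12.1 FPKM in Vector. In the shRNA cells it had 0.223 and 0.0759 FPKM in sh-Ntoco, against 0.0768 and 0.632 FPKM in sh-Ctrl. Its lowest values rest on 6 counts each, in sh-Ntoco library 2 and sh-Ctrl library 1. Oas2 alone among the 7 genes had its highest FPKM in Vector library 1, and its range over the 8 libraries was 466-fold in CPM. Oas3 had 1.38 and 40.3 FPKM in Lv-Ntoco, against 37.5 and 55.7 FPKM in Vector. It had 1.09 and 0.419 FPKM in sh-Ntoco, against 0.541 and 1.15 FPKM in sh-Ctrl. For Oas3, Vector library 2 was highest and Lv-Ntoco library 2 lay between the Vector libraries.

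The OAS-like proteins carry ubiquitin-like repeats behind the OAS unit. Oasl1, which in the mouse represses translation of the interferon regulatory factor Irf7, had 6.87 and 199 FPKM in Lv-Ntoco, against 80.7 and 191 FPKM in Vector. It had 1.87 and 1.75 FPKM in sh-Ntoco, against 2.51 and 4.27 FPKM in sh-Ctrl. Oasl1 was the only member with both knockdown libraries below both control shRNA libraries, which in CPM held for 14.1% of all genes. Oasl2, the OAS-like protein that retains synthetase activity in the mouse, had 1.18 and 65.6 FPKM in Lv-Ntoco, against 64.0 and 79.9 FPKM in Vector. It had 1.08 and 0.628 FPKM in sh-Ntoco, against 0.618 and 1.46 FPKM in sh-Ctrl. Lv-Ntoco library 2 was just above the lower Vector library in FPKM, and the shRNA groups overlapped.

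The order of the genes changed between quiet and active libraries. In sh-Ctrl the mean levels ran from Oas1a (7.41 ± 1.53 FPKM, SD, n = 2) through Oasl1 (3.39 ± 1.24), Oas1g (3.13 ± 0.752), Oas1c (1.30 ± 0.219), Oasl2 (1.04 ± 0.596) and Oas3 (0.843 ± 0.428) to Oas2 (0.354 ± 0.392). Oas1a stood clear of its neighbour and Oas1g of Oas1c, while the other neighbours in this order overlapped. In Vector the order was Oasl1 (136 ± 78.1 FPKM), Oas1a (94.3 ± 3.28), Oasl2 (72.0 ± 11.2), Oas3 (46.6 ± 12.9), Oas1g (38.8 ± 11.6), Oas2 (22.2 ± 14.3) and Oas1c (7.12 ± 1.22). There Oasl1 overlapped Oas1a, Oas3 overlapped Oas1g and Oas1g overlapped Oas2, and the remaining neighbours did not overlap. As a share of the summed family level, Oas1a made up 40.9% and 26.9% in Lv-Ntoco, against 27.8% and 18.9% in Vector, and 48.7% and 46.6% in sh-Ntoco, against 44.8% and 40.8% in sh-Ctrl. The share of Oasl2 was 4.22% and 12.1% in Lv-Ntoco, against 18.4% and 16.4% in Vector, and 5.37% and 4.08% in sh-Ntoco, against 4.38% and 7.03% in sh-Ctrl. In these 2 shares Lv-Ntoco library 1 lay within the range of the shRNA libraries. The share of Oasl1 was different: it was 24.6% and 36.8% in Lv-Ntoco, against 23.2% and 39.4% in Vector, and 9.29% and 11.4% in sh-Ntoco, against 17.8% and 20.5% in sh-Ctrl. For Oasl1, Lv-Ntoco library 1 was above all 4 shRNA libraries and within the range of the Vector libraries.

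**Figure D2:**
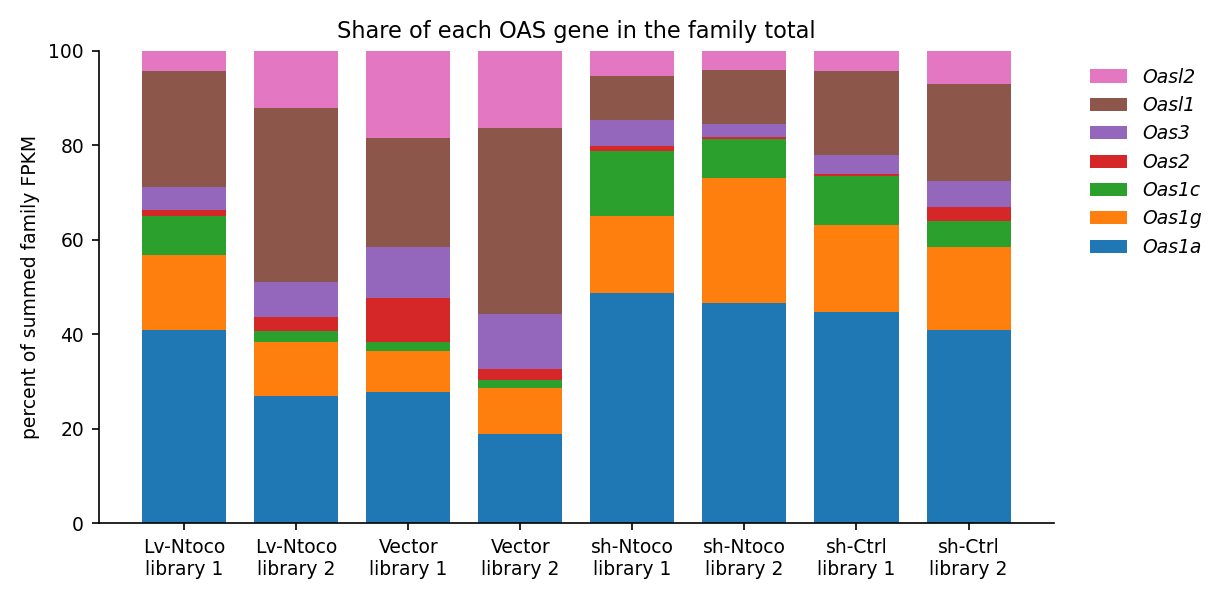
Percent of the summed FPKM of the 7 OAS genes contributed by each gene, in each of the 8 libraries. The blue Oas1a segment takes 40.8% to 48.7% in the shRNA libraries and 40.9% in Lv-Ntoco library 1, against 18.9% to 27.8% in the 3 other libraries.

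The overexpression comparison sets Lv-Ntoco against Vector, and for this family the result differed between the 2 Lv-Ntoco libraries. The log2 ratio of Lv-Ntoco over Vector was negative in all 7 genes, with a median of -0.40, where the median over all genes tested was -0.01. It was -1.42 (SE 1.34) for Oas2, -1.17 (SE 1.14) for Oas3, -1.12 (SE 1.24) for Oasl2 and -0.40 (SE 1.11) for Oasl1. For Oas1a it was -0.28 (SE 0.86), for Oas1g -0.22 (SE 0.89) and for Oas1c -0.00 (SE 0.69); the sign for Oas1c turned when libraries were scaled by size alone or when no genes were filtered out. These ratios are no larger than the spread between libraries. With edgeR's quasi-likelihood test 0 of the 7 passed an adjusted p of 0.05 (lowest adjusted p among them 0.700), as did 0% of all 12115 genes. At an unadjusted p under 0.05 there were 0 members against 7.62% of all genes, and with DESeq2 0 members against 0.00825%. Both Lv-Ntoco libraries were below both Vector libraries in CPM in 1 member, Oasl2 (3.76 and 208 CPM in Lv-Ntoco, against 209 and 252 CPM in Vector), against 23.1% of all genes, and above them in 0 members against 24.1%.

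Between the 2 Lv-Ntoco libraries all 7 genes differed by more than in the pair of any other group. Library 2 exceeded library 1 in CPM by 5.25-fold for Oas1c, 12.7-fold for Oas1a, 14.0-fold for Oas1g, 28.9-fold for Oasl1, 29.0-fold for Oas3, 47.7-fold for Oas2 and 55.4-fold for Oasl2. A more than 4-fold excess of library 2 was seen in all 7 members, against 2.01% of all genes. The median absolute log2 difference between partner libraries was 4.84 for the members in Lv-Ntoco, against 0.52 in Vector, and 0.78 in sh-Ntoco, against 0.70 in sh-Ctrl. Over all genes tested the same medians were 0.25, 0.32, 0.40 and 0.25. By this median the 2 Lv-Ntoco libraries were as close as the pair of any other group. It does not reflect the genes with large differences, which were not OAS genes alone. In Lv-Ntoco libraries 1 and 2, Isg15 had 5.10 and 261 CPM and Irf7 had 4.48 and 331 CPM.

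Each Lv-Ntoco library alone gave a different comparison. Without library 1 the log2 ratios over Vector ran from -0.45 (Oas2) to 0.75 (Oas1c), with a median of 0.55, and 0 members passed. Without library 2 they ran from -6.02 (Oas2) to -1.64 (Oas1c), with a median of -4.30. In that fit 2 of the 7 members passed edgeR's test, Oas1a (-3.06, adjusted p 0.0390) and Oasl2 (-5.94, adjusted p 0.0353), against 0.198% of all genes. The remaining 5 had adjusted p from 0.0611 to 0.559. With 1 library left in the group, these fits assume that it varies like the other groups' libraries.

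**Figure D3:**
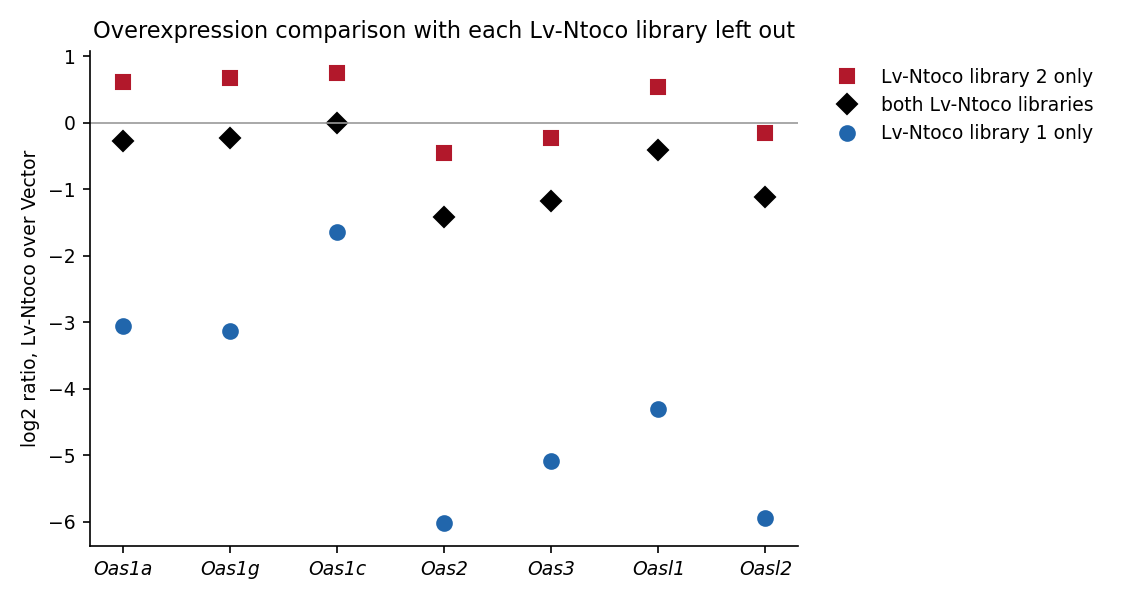
edgeR log2 ratio of Lv-Ntoco over Vector for each OAS gene, fitted with both Lv-Ntoco libraries (diamonds) or with 1 of them (squares, library 2; circles, library 1). The library 1 values lie between -6.02 and -1.64, and the library 2 values between -0.45 and 0.75.

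The largest log2 ratios of the family lay between the 2 control groups. Set against sh-Ctrl, both Vector libraries were higher in all 7 members, against 24.6% of all genes, and lower in 0, against 26.5%. This comparison does not involve Ntoco: the groups differ in construct and may differ in its delivery, which cannot be told apart. The log2 ratio of Vector over sh-Ctrl was 6.18 (SE 1.56) for Oasl2, 6.06 (SE 1.70) for Oas2, 5.85 (SE 1.40) for Oas3 and 5.38 (SE 1.34) for Oasl1. It was smaller in the OAS1 genes, at 3.74 (SE 0.97) for Oas1a, 3.69 (SE 1.01) for Oas1g and 2.51 (SE 0.75) for Oas1c. The members' median was 5.38, against -0.00 over all genes tested. These sizes rest on few libraries: leaving out 1 gave 5.14 (without Vector 1) to 8.19 (without sh-Ctrl 2) for Oas2, 4.67 (without Vector 2) to 5.86 (without Vector 1) for Oasl1, 5.43 (without sh-Ctrl 1) to 6.46 (without sh-Ctrl 2) for Oas3 and 5.71 (without sh-Ctrl 1) to 6.89 (without sh-Ctrl 2) for Oasl2. The order among these 4 genes changed with the library left out. The summed fibroblast, astrocyte and microglia lists were lower in both Vector libraries than in both sh-Ctrl libraries, and their part in the result was not tested.

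The call depended on the test. With edgeR over all 4 groups, 0 of 7 members passed (adjusted p 0.337 to 0.350), as did 0% of all genes, and at an unadjusted p under 0.05 there were 7 members against 12.5% of all genes. DESeq2's Wald test called all 7 as higher (adjusted p 0.00469 for Oas3 to 0.0473 for Oas1g), against 2.37% of the genes it tested. With only the Vector and sh-Ctrl libraries in the edgeR fit, all 7 passed (adjusted p 0.00276 for Oas1a to 0.0351 for Oas2), against 1.07% of all genes. Without Lv-Ntoco library 1, 6 members passed, against 0.801% of all genes, and without Lv-Ntoco library 2 the same 6 passed, against 0.792%. Oas1c was the exception in both, with adjusted p 0.0829 and 0.106. The Vector libraries serve in both this comparison and the overexpression comparison, so the values of the 2 comparisons are not independent.

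**Figure D4:**
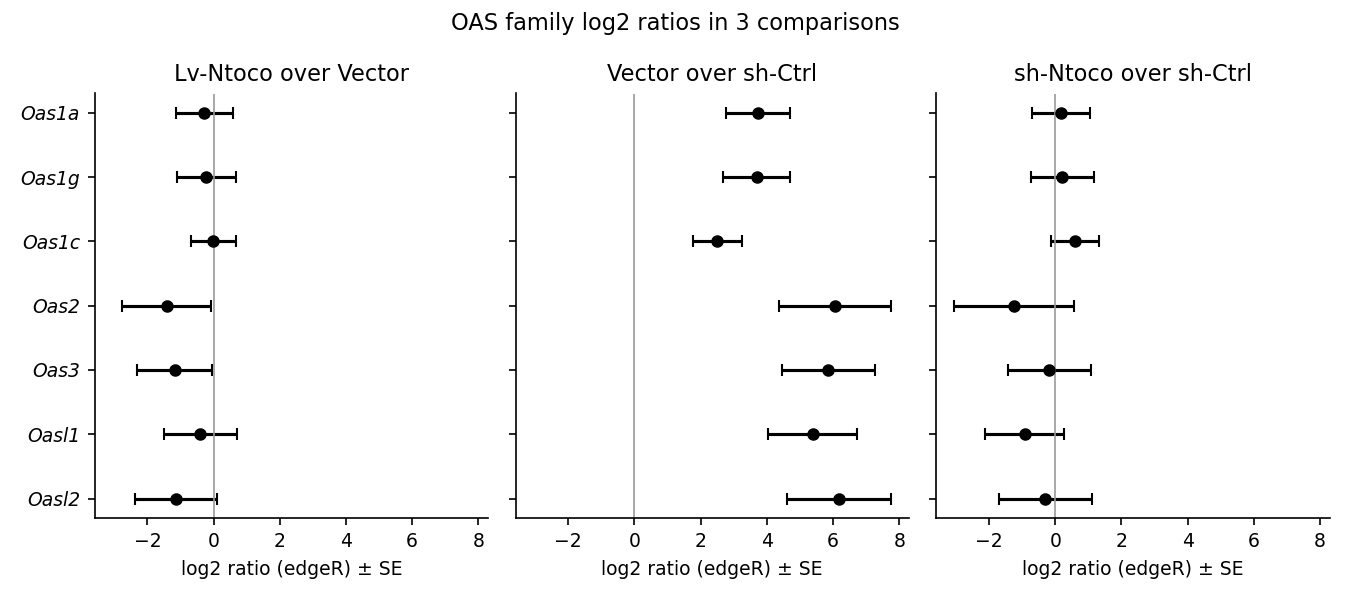
edgeR log2 ratios with their SE for the 7 OAS genes in 3 comparisons, each fitted over all 8 libraries; the middle panel shares its Vector libraries with the left and its sh-Ctrl libraries with the right. Ratios of Vector over sh-Ctrl lie between 2.51 and 6.18, and those of the other 2 panels between -1.42 and 0.60.

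No difference in the OAS genes was detected between sh-Ntoco and sh-Ctrl. In the knockdown comparison the log2 ratios of sh-Ntoco over sh-Ctrl were positive in 3 members and negative in 4, with a median of -0.18, against 0.01 over all genes tested. They were 0.60 (SE 0.73) for Oas1c, 0.21 (SE 0.94) for Oas1g and 0.17 (SE 0.88) for Oas1a. They were -1.25 (SE 1.80) for Oas2, -0.92 (SE 1.20) for Oasl1, -0.30 (SE 1.40) for Oasl2 and -0.18 (SE 1.24) for Oas3. With edgeR's quasi-likelihood test 0 members passed (lowest adjusted p 0.992), as did 0% of all genes, and at an unadjusted p under 0.05 there were 0 members against 3.12% of all genes. DESeq2 called 0 members, against 0.124%. The median was 0.41 without sh-Ctrl 2 and 0.07 without sh-Ntoco 2, but -0.60 without sh-Ctrl 1 and -0.76 without sh-Ntoco 1, so single libraries set its direction. Both knockdown libraries were lower in 1 member, Oasl1, against 14.1% of all genes, and higher in 0, against 15.1%. Standard errors of 0.73 to 1.80 on the log2 scale mean that only large differences could have been detected. They rest on the spread within all 4 groups, the unlike Lv-Ntoco libraries included, not on the shRNA libraries alone. With only the sh-Ntoco and sh-Ctrl libraries in the edgeR fit, 0 members passed, as did 0 of all genes.

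Whether the effect of overexpression differed from that of knockdown was tested as well. It ranged over the members from -0.996 (Oas3) to 0.52 (Oasl1) on the log2 scale. With edgeR 0 members passed (lowest adjusted p 0.844), as did 0% of all genes, and 0 had an unadjusted p under 0.05, against 6.92% of all genes. DESeq2 called 0 members, against 0.116%.

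The genes of 2-5A handling that are described here kept within narrower limits than the OAS genes. Abce1, a ribosome recycling factor also known as an inhibitor in the 2-5A pathway, had 127 and 142 FPKM in Lv-Ntoco, against 155 and 131 FPKM in Vector, and 92.1 and 136 FPKM in sh-Ntoco, against 112 and 109 FPKM in sh-Ctrl. Pde12, a phosphodiesterase that degrades 2-5A, had log2 ratios of -0.33 (SE 0.23) for Lv-Ntoco over Vector, 0.81 (SE 0.23) for Vector over sh-Ctrl and 0.34 (SE 0.23) for sh-Ntoco over sh-Ctrl. For Akap7, whose product can also degrade 2-5A in the mouse, they were -0.18, 0.50 and 0.20 (SE 0.32 each). Of these 3 genes, 0 passed edgeR's or DESeq2's test in any of the 3 comparisons. At an unadjusted p under 0.05 there was 1 for Vector over sh-Ctrl (Pde12) and 0 for sh-Ntoco over sh-Ctrl and for Lv-Ntoco over Vector. The median over the 3 was the value of Akap7 in each comparison. In Vector over sh-Ctrl both libraries were higher in 3 of 3, where this held for 24.6% of all genes, and an unadjusted p under 0.05 for 12.5%.

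Several sensors and effectors of double-stranded RNA stood high in the same libraries as the OAS genes. Ifih1, the sensor MDA5, had 1.79 and 23.6 FPKM in Lv-Ntoco, against 29.1 and 31.5 FPKM in Vector, and 2.23 and 2.37 FPKM in sh-Ntoco, against 0.953 and 1.56 FPKM in sh-Ctrl. Eif2ak2, the kinase PKR that stops translation on double-stranded RNA, had 11.6 and 53.4 FPKM in Lv-Ntoco, against 60.1 and 69.0 FPKM in Vector, and 16.6 and 15.3 FPKM in sh-Ntoco, against 11.2 and 10.1 FPKM in sh-Ctrl. Adar, which edits double-stranded RNA and limits its recognition, had 11.2 and 39.4 FPKM in Lv-Ntoco, against 53.1 and 62.0 FPKM in Vector, and 12.1 and 18.4 FPKM in sh-Ntoco, against 12.4 and 13.0 FPKM in sh-Ctrl. Mavs and Zc3hav1, named after their values were seen, did not share this pattern. Mavs, the adaptor of the RNA helicases, had 21.2 and 20.0 FPKM in Lv-Ntoco, against 15.1 and 17.9 FPKM in Vector, and 24.1 and 16.6 FPKM in sh-Ntoco, against 24.7 and 24.2 FPKM in sh-Ctrl. Zc3hav1, an antiviral zinc finger protein, had 35.3 and 39.8 FPKM in Lv-Ntoco, against 64.8 and 88.6 FPKM in Vector, and 36.0 and 50.2 FPKM in sh-Ntoco, against 27.8 and 44.9 FPKM in sh-Ctrl. Of the 9 tested genes of this group, both Vector libraries were above both sh-Ctrl libraries in 8 (24.6% of all genes) and below them in 1 (26.5%), and the median log2 ratio was 2.66. DESeq2 called 6 of the 9 as higher, against 2.37% of the genes it tested called in either direction. With edgeR 0 passed, and 8 had an unadjusted p under 0.05 (12.5% of all genes). In Lv-Ntoco over Vector the median was -0.98, with both libraries lower in 4 (23.1% of all genes) and higher in 1 (24.1%). There 2 genes, Adar and Zc3hav1, were lower at an unadjusted p under 0.05 (7.62% of all genes in either direction), and 0 passed with edgeR or DESeq2. In sh-Ntoco over sh-Ctrl the median was 0.24, with both libraries higher in 3 (15.1% of all genes).

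Interferon signalling genes did not all behave alike. Of the receptor subunits, Ifnar1 had 13.4 and 12.6 FPKM in Lv-Ntoco, against 16.6 and 13.5 FPKM in Vector, and 12.3 and 13.9 FPKM in sh-Ntoco, against 14.0 and 14.8 FPKM in sh-Ctrl. Ifnar2 lay between 7.17 and 11.7 FPKM in all libraries. Interferon beta itself, Ifnb1, had 0 and 44 counts in Lv-Ntoco, against 3 and 29 in Vector, and 0 and 0 in sh-Ntoco, against 0 and 2 in sh-Ctrl. Lv-Ntoco library 2 and Vector library 2 held nearly all Ifnb1 reads, and Vector library 1, in which the OAS genes were also high, held 3.

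The factors Stat2, Irf9 and Irf7 were high in the same libraries as the OAS genes. Stat2 had 2.56 and 19.2 FPKM in Lv-Ntoco, against 23.0 and 30.1 FPKM in Vector, and 4.53 and 3.78 FPKM in sh-Ntoco, against 3.71 and 2.96 FPKM in sh-Ctrl. Vector over sh-Ctrl had a log2 ratio of 3.05 (SE 0.77) for Stat2, 4.12 (SE 0.64) for Irf9 and 5.75 (SE 1.65) for Irf7. DESeq2 called all 3 as higher and edgeR none of them (adjusted p 0.337 to 0.345). Irf7, the factor that amplifies interferon production, had 2.36 and 175 FPKM in Lv-Ntoco, against 161 and 82.0 FPKM in Vector, and 1.55 and 0.943 FPKM in sh-Ntoco, against 1.18 and 3.61 FPKM in sh-Ctrl. The receptor kinases Jak1 and Tyk2 and the factor Irf3, named after their values were seen, were not higher in Vector: their log2 ratios over sh-Ctrl were 0.02 (SE 0.18), -0.56 (SE 0.36) and -0.01 (SE 0.32), and the libraries of the 2 groups overlapped. Among the 13 genes of this group described here the median log2 ratio was 1.70 for Vector over sh-Ctrl. Both Vector libraries were higher in 9 (24.6% of all genes). DESeq2 called 5 as higher, against 2.37% of the genes it tested called in either direction. With edgeR 0 passed, and 5 had an unadjusted p under 0.05 (12.5% of all genes). The median was -0.23 for Lv-Ntoco over Vector, with both libraries lower in 6 (23.1% of all genes) and higher in 0 (24.1%). For sh-Ntoco over sh-Ctrl the median was -0.01, with both libraries higher in 2 (15.1% of all genes) and lower in 2 (14.1%).

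Most other interferon-stimulated genes were also higher in the Vector libraries than in sh-Ctrl. Both Vector libraries were above both sh-Ctrl libraries in 26 of 27 tested genes (24.6% of all genes), with a median log2 ratio of 3.99. DESeq2 called 23 as higher, against 2.37% of the genes it tested called in either direction. With edgeR 0 passed, and 26 had an unadjusted p under 0.05 (12.5% of all genes). Lv-Ntoco over Vector had a median of -0.76, with both libraries lower in 5 (23.1% of all genes) and higher in 0 (24.1%), and 2 genes were lower at an unadjusted p under 0.05 (7.62% of all genes in either direction). In sh-Ntoco over sh-Ctrl the median was 0.31, with both libraries higher in 11 (15.1% of all genes) and lower in 3 (14.1%). There 0 passed with edgeR or DESeq2. At an unadjusted p under 0.05 there were 4, all higher (3.12% of all genes in either direction): Ifi27, Psmb8, Psmb9 and Tap1. Of these, Ifi27 had a log2 ratio of 0.89 (SE 0.27), against -1.22 (SE 0.27) for Lv-Ntoco over Vector. The latter ratio was -0.18 for Psmb8, 0.36 for Psmb9 and -0.57 for Tap1. For the overexpression effect minus the knockdown effect, DESeq2 called Ifi27 alone of this list (adjusted p 0.00190), against 0.116% of all genes. With edgeR it did not pass (adjusted p 0.650). Relative to the sh-Ctrl mean the list's median was 0.72 and 4.27 (log2) in Lv-Ntoco libraries 1 and 2, 3.39 and 4.04 in Vector, and 0.71 and -0.04 in sh-Ntoco. The OAS members' medians on the same scale were 0.69 and 5.68 in Lv-Ntoco, 4.69 and 5.58 in Vector, and 0.16 and -0.62 in sh-Ntoco. GAAANNGAAA occurred in the promoter windows of 9 of 24 of these genes (37.5%), of 3 of 7 sensors and effectors (42.9%), of 2 of 12 signalling genes (16.7%) and of 0 of 3 genes of 2-5A handling. A gene was counted here if any of its windows held the motif. The share over all promoter windows (3.44%) counted single windows, so it is in a different unit.

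**Figure D5:**
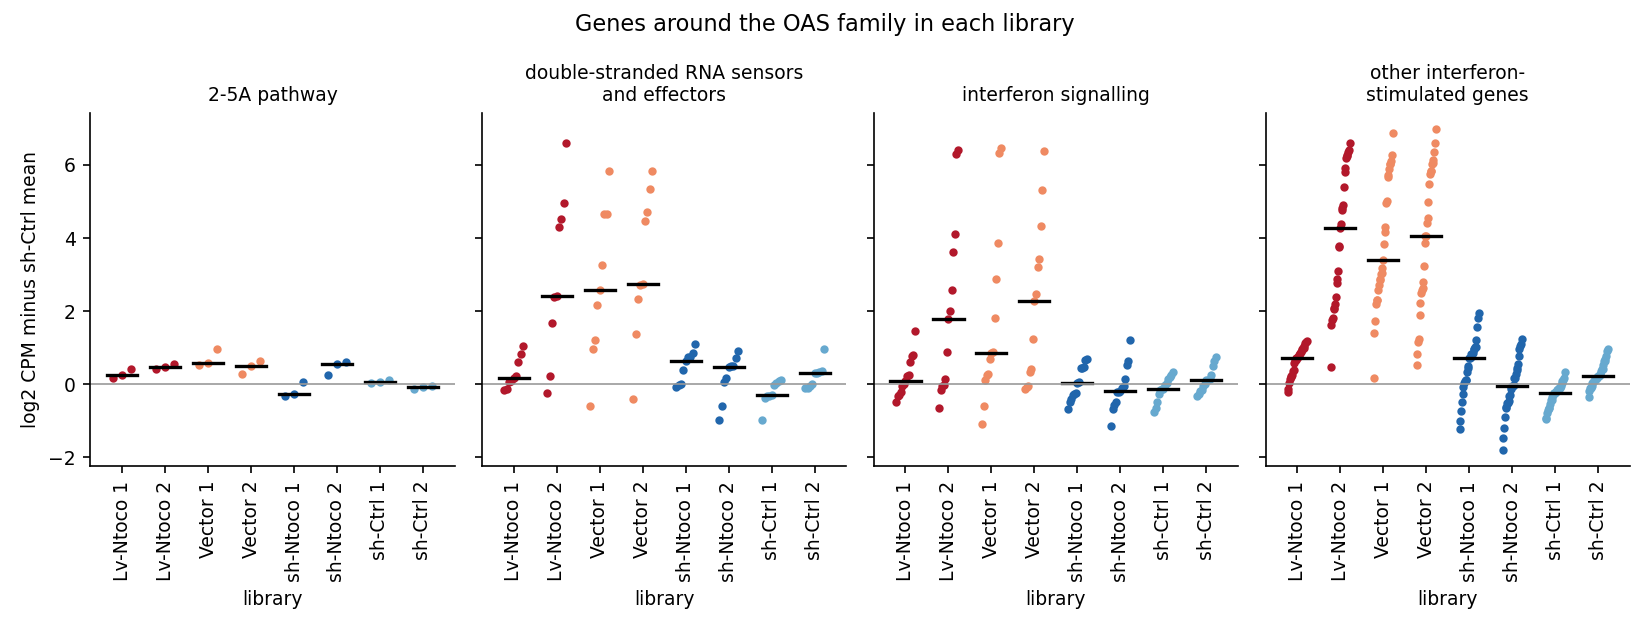
log2 CPM of each tested gene minus its mean over the sh-Ctrl libraries, in 4 gene groups and 8 libraries; points are genes, coloured by sample group, and black bars are medians over genes. The 2-5A genes have medians of -0.27 to 0.58. The other 3 groups are raised in Lv-Ntoco library 2 and both Vector libraries, up to a median of 4.27. In Vector library 1 the interferon signalling median is 0.85, not far above the 0.58 of the 2-5A genes.

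The genes most like the family over the 8 libraries were sought by Pearson correlation of each gene's log2 CPM with the scaled mean of the 7 members. The 10 nearest non-members were Ifit3, Isg15, Phf11d, Ifi205, Xaf1, Rtp4, Myo18b, Gbp3, Ddx60 and Cmtr1, with r from 0.992 to 0.998. Since the libraries fall into 3 high and 5 low ones, r mostly records that split, and no p is given. Ifit3, which binds foreign RNA together with its IFIT partners, had 6.70 and 271 CPM in Lv-Ntoco, against 186 and 246 CPM in Vector, and 3.71 and 2.12 CPM in sh-Ntoco, against 2.15 and 5.35 CPM in sh-Ctrl. Cmtr1, a cap methyltransferase, moved along a narrower scale, with 93.8 and 212 CPM in Lv-Ntoco, against 177 and 176 CPM in Vector, and 82.7 and 83.1 CPM in sh-Ntoco, against 81.0 and 86.0 CPM in sh-Ctrl. Ifi205 and Myo18b stayed below 2.60 CPM throughout. Among the members, r with the family mean, of which each is a part, ran from 0.957 for Oas1c to 0.997 for Oas1a.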

How the data were processed

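Gene counts and FPKM values of 8 libraries were used as the authors deposited them; polyadenylated RNA was sequenced with a stranded kit, per the labels' protocols. The counts are whole reads per gene and not normalized, and the FPKM values were scaled by the authors for gene length and library size. Per the submitters' processing notes, Trimmomatic, HISAT2, Cufflinks, HTSeq, DESeq and the build mm10 were used, with roles and versions not given in the sources used here. Columns were assigned to the 4 groups by the roles in their names.

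The members and the gene lists were chosen with earlier results of these data known. Of the listed genes around the family, 2 are not reported here, 3 names were not matched and 1 did not pass the filter. Members were all described, and genes most like them were the 10 non-members with the highest correlation to the family mean. Genes passing edgeR's filterByExpr (minimum count 10) were fitted in a single model of the 4 groups on TMM-scaled counts (edgeR 4.0.16, limma 3.58.1, R 4.3.3), with residual df 4. The quasi-likelihood F-test gave p-values, which were Benjamini-Hochberg adjusted over all 12115 genes tested and called at 0.05. A standard error is the absolute log2 ratio divided by the square root of F. The fit was tested on simulated data with less spread between libraries than here and no pair as unlike as the Lv-Ntoco libraries. That test therefore does not show how the fit performs on these data. Alternatives were DESeq2 1.42.0, its size factors, scaling by library size, no filter, fits of the 2 groups compared, a replicate block and leaving out each library.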

Additional observations from a re-analysis of the deposited data

How the results depend on the processing

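The ratios of Vector over sh-Ctrl were positive for all 7 members in each alternative that gave member ratios (the crossed block gave counts only), but their calls were not stable. Genes called numbered 0 with edgeR in every comparison as fitted over all 8 libraries. DESeq2 called 15 genes for sh-Ntoco over sh-Ctrl, 1 for Lv-Ntoco over Vector, 281 for Vector over sh-Ctrl (7 members) and 14 for the difference of effects. Without a filter 3 genes were called for Vector over sh-Ctrl. Fitting only the 2 groups compared called 1 gene for Lv-Ntoco over Vector and 130 for Vector over sh-Ctrl (7 members). Leaving out 1 library gave 0 to 97 genes and 0 to 6 members for Vector over sh-Ctrl, 0 to 24 genes and 0 to 2 members for Lv-Ntoco over Vector, and 0 to 1 gene for sh-Ntoco over sh-Ctrl and for the difference. The libraries behind the higher counts were Lv-Ntoco 1 or 2 for Vector over sh-Ctrl, Lv-Ntoco 2 for Lv-Ntoco over Vector and sh-Ntoco 1 for the other two. DESeq2's size factors changed no call. The cause of these changes was not tested.

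Several log2 ratios turned sign, and not only those near 0. For Lv-Ntoco over Vector, Oas1c was 0.0092 with library size alone and 0.0029 without a filter. Leaving out 1 library gave -3.06 to 0.61 for Oas1a, -1.64 to 0.75 for Oas1c, -3.13 to 0.68 for Oas1g and -4.30 to 0.55 for Oasl1. For sh-Ntoco over sh-Ctrl it gave -0.090 to 0.39 for Oas1a, -0.10 to 1.06 for Oas1c, -2.23 to 0.89 for Oas2, -1.04 to 0.43 for Oas3 and -0.77 to 0.41 for Oasl2. For the difference it gave -3.23 to 0.44 for Oas1a, -2.24 to 0.15 for Oas1c, -3.34 to 0.46 for Oas1g, -4.77 to 0.81 for Oas2, -3.38 to 1.47 for Oasl1 and -5.64 to 0.15 for Oasl2.

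Library numbers come only from the column names, and the labels do not pair them. Deviations of same-numbered libraries correlated at 0.36 for the knockdown, -0.22 for the overexpression and -0.12 for Vector over sh-Ctrl. With the replicate block 0 genes were called in any comparison, and Oas3 (0.18) and Oasl2 (0.030) turned sign in the knockdown, as did Oasl1 (-0.21) in the difference. With the numbers crossed, a setting chosen after seeing the data, 1 gene and 0 members were called for Vector over sh-Ctrl. With 2 libraries per group, only large differences could be detected, and the lowest Oas2 values rest on 6 counts.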
